A study of Bos taurus with 14 samples.

Results

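The passage of bovine embryos from the 4-cell to the 16-cell stage in culture was followed by setting 3 RNA-seq libraries of Day-4 embryos against 5 libraries of Day-2 embryos. These 8 libraries, of 14 in the study, were taken by their sample labels, and no measured value entered the choice. The study asked how in vitro culture, or the metabolic status of the cow whose oviduct held the embryos, affects the transcriptome around embryonic genome activation (EGA). The embryos came from oocytes of abattoir ovaries, pooled across donors, that had been matured and fertilized in vitro with sperm of 1 bull and kept in synthetic oviduct fluid. The Day-2 group was frozen at the 4-cell stage, and the Day-4 group stayed in the same culture until the 16-cell stage (in vitro culture, IVC). Each library was made from a pool of 5 embryos, and the other 6 libraries, from embryos recovered from cows, were not used. Both groups therefore share the in vitro origin and the sire, and what passes between them is 2 days of development in the dish.

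Until EGA the embryo lives on RNA that the oocyte stored. At EGA, which in cattle falls around the cleavage stages studied here, stored transcripts are degraded and the embryo's own genome takes over, with the machinery for making RNA and protein among the first products. Mitochondria are inherited from the oocyte and carry their own small genome, which encodes a few subunits of the respiratory chain. The kinase mTOR, in its complex mTORC1 at the lysosome surface, couples amino acid supply to protein synthesis and growth.

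The counts of reads on genes summed to between 27790816 and 30120040 in the Day-2 libraries and between 22711367 and 29625671 in the IVC libraries. Levels are given as CPM, the counts on a gene scaled to a library of fixed size, after scaling by the trimmed mean of M values (TMM). At this depth 3 counts corresponded to between 0.0737 and 0.166 CPM, and this floor takes in counting error alone, because several reads can stem from one molecule. A CPM is a share of the library, so fewer cells of a kind and less RNA per cell cannot be told apart, and a change in the total RNA of an embryo is not seen.

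The libraries of a group were not independent of each other. On Day 2, 404 genes that reached 5 CPM in some library had over 2 counts in exactly 2 of the 5 libraries. For 388 of these genes the pair joined replicate 1 or 5 with replicate 2, 3 or 4, and for 16 it was one of the 4 other pairs, as the plot of genes by pair of Day-2 libraries shows. No gene was shared by replicates 1 and 5 alone, whereas 115 were shared by replicates 3 and 5 alone. Only 23 genes were over 2 counts in exactly 1 library.

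**Figure D1:**
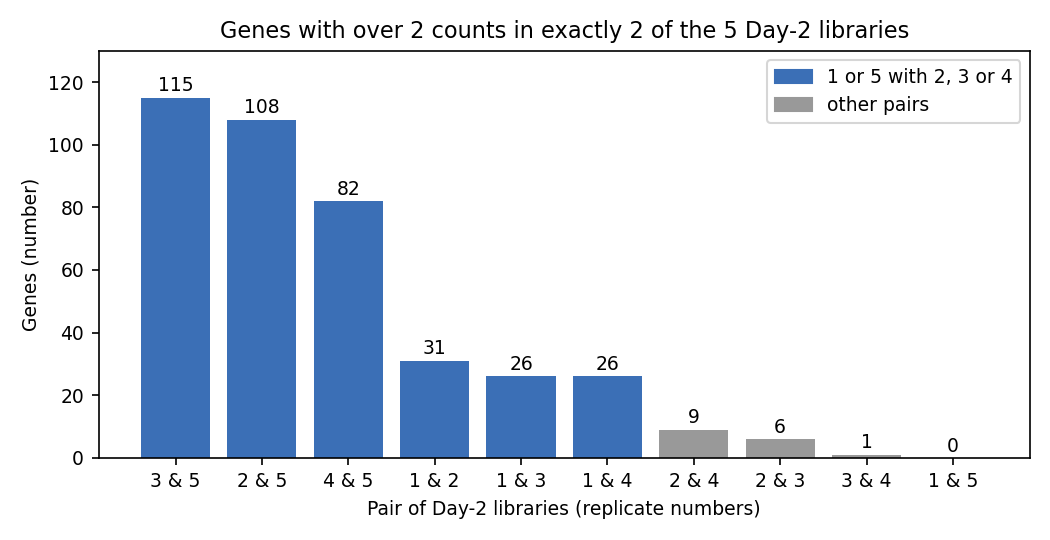
Number of genes (y axis) with over 2 counts in exactly 2 of the 5 Day-2 libraries, by the pair of replicates that held them (x axis). Blue bars are the 6 pairs of replicate 1 or 5 with replicate 2, 3 or 4, which hold between 26 and 115 genes, and grey bars are the 4 other pairs, which hold between 0 and 9.

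The same relation ran through the levels. Over 5351 genes at a Day-2 mean of at least 20 CPM, the mean of replicates 1 and 5 lay within 10% of the mean of replicates 2, 3 and 4 for 93% of genes. For the 9 other splits of 2 against 3 libraries this held for 25.8% to 36.6% of genes. In IVC, replicate 1 lay between replicates 2 and 3 for 98.6% of 8084 genes and within 5% of their mean for 92% of them. Which step made these libraries share signal was not tested. Nothing in the labels says whether pools of a group came from separate cultures. Because libraries share signal, p-values measure the spread between libraries, which need not be that between separate pools. Below, pool stands for a library. IVC replicate 1 was left out of the main test and its values stand beside the others. Because the 5 Day-2 libraries share signal, errors computed from all of them are too small, and results are also given for Day-2 replicates 2, 3 and 4 against IVC replicates 2 and 3, which are called here the libraries without shared signal.

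Between 4 and 16 cells in culture, a large part of the transcriptome changed in both directions. With edgeR's quasi-likelihood test and Benjamini-Hochberg adjustment (FDR), 5328 of 12723 genes tested (41.9%) passed an FDR of 0.05. Of these, 2779 (21.8% of genes tested) were higher and 2549 (20%) were lower in IVC than on Day 2. With a change of at least 2-fold required as well, 5238 genes remained (41.2%), 2738 of them higher (21.5%) and 2500 lower (19.6%). The libraries without shared signal gave 4490 calls among 12073 genes (37.2%), of which 2172 were higher (18%) and 2318 lower (19.2%). Among these, 4317 were also called with all 5 Day-2 libraries, which is 81% of the calls from 5 Day-2 libraries and 96.1% of those without shared signal, and all of them had the same direction. Leaving out a Day-2 library left 4768 to 4953 calls. Leaving out IVC replicate 2 or 3 leaves 1 IVC library. A gene under 1 CPM in every Day-2 library then cannot pass the filter of 1 CPM in 2 libraries. The number of rises is therefore lowered by the filter in those fits, and no dependence on a pool is read from it.

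The balance of rises and falls depended on the scaling, since a few genes took a larger share of the counts on Day 4. With TMM the median log2 fold change of all genes tested was -0.02, and 52.2% of called genes were higher. With total counts alone the median was -0.62 and 39.9% of called genes were higher, and with the size factors of DESeq2 it was 0.31 and 59%. A gene's rise or fall below is relative to the TMM scale.

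The changes were large. The median log2 change of called rises was 4.71, with the 377 genes at or under 3 counts in every Day-2 library set at their lower bound. Called genes that fell had a median of -3.20, with 200 genes at the bound. At least 8-fold changes (log2 of 3) numbered 1947 upwards and 1392 downwards. Among 5358 tested genes under 10 CPM on average over the 7 libraries, 18.1% were called higher and 5.58% lower, whereas among 1884 genes between 100 and 1000 CPM, 22.6% were higher and 47.8% lower. This average holds 5 Day-2 and 2 IVC libraries, so a fall gives a higher average than a rise between the same levels, and no relation of direction to level is read from it. Called falls went from a median level of 81.3 to 9.63 CPM, and called rises went from 2.15 to 56.9 CPM.

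**Figure D2:**
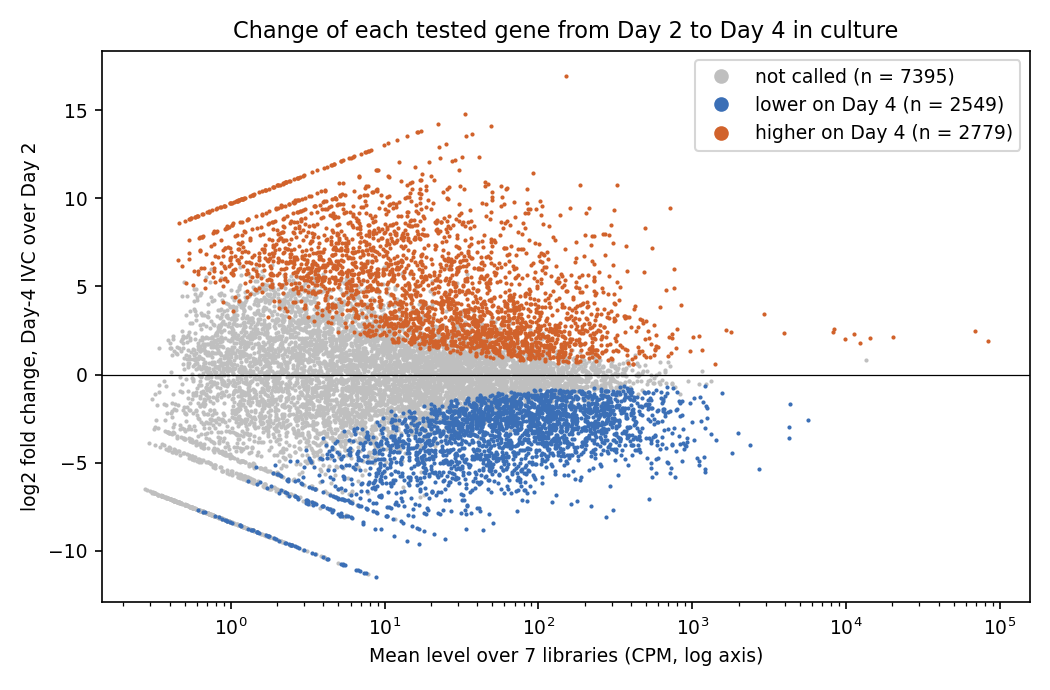
Log2 fold change of Day-4 IVC over Day 2 (y axis) against the mean level over the 7 libraries of the test (CPM, log axis) for the 12723 genes tested. Each point is a gene, orange for the 2779 called higher on Day 4, blue for the 2549 called lower and grey for the 7395 not called, and falls outnumber rises above 100 CPM on this average, to which Day 2 gives 5 of the 7 libraries.

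The number of genes that appeared or were cleared depended on the rule. At least 1 CPM was found in every Day-2 library for 7567 genes and in every IVC library for 9517 genes, and 6370 genes were common to both. Of these 6370 genes, 1269 were called higher and 1827 lower. In all, 1234 genes were at 1 CPM or more in every IVC library and under it in every Day-2 library, and 451 genes showed the reverse. Under a stricter rule, 98 genes had at most 3 counts in every Day-2 library and at least 10 CPM in every IVC library, and 11 genes were cleared in the same sense. The 98 appearing genes made up between 0.327% and 0.428% of the counts of an IVC library. Of the genes called lower, 80% still had a mean of at least 1 CPM in IVC.

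The gene with the largest rise shows how far a pool can depart from the others. ENSBTAG00000021272 had 0 counts in the 5 Day-2 libraries and stood at 442, 1022 and 30.7 CPM in IVC replicates 1, 2 and 3. The mean of IVC replicates 2 and 3, at 526 CPM, was at least 5129-fold above the floor of 3 counts per Day-2 library (FDR 0.00459). Replicate 2 dominates this mean, so the bound does not hold for replicate 3 alone. The level of this gene thus differed widely between the 2 tested IVC pools. The largest fall was that of ENSBTAG00000002908, at 53.3, 54.3, 49.4, 86.6 and 59.1 CPM in Day-2 replicates 1 to 5 and at 0.0898, 0.0442 and 0.221 CPM in IVC replicates 1 to 3. Day-2 replicate 4 stood above the other Day-2 pools, and the IVC levels were close to the floor. Its log2 fold change was -8.81 with a standard error (SE) of 0.64 (FDR 1.48e-04, and 8.11e-04 without shared signal). It was -8.05 without IVC replicate 2 and -10.26 without IVC replicate 3.

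Counts became concentrated on few genes. The 10 genes of highest counts took 19.2%, 14.1%, 13.6%, 20.1% and 12.5% of the counts in Day-2 replicates 1 to 5, and 42.5%, 41.9% and 42.7% in IVC replicates 1 to 3. The groups did not overlap, and the difference of 26.4 percentage points was the largest that relabelling the 7 tested libraries can give (two-sided exact permutation test, p = 0.0952, the smallest this design allows). To reach 50% of a library's counts took between 361 and 582 genes on Day 2 and between 57 and 64 genes in IVC. At the same time more genes were detected: 8990, 9941, 9811, 9709 and 10010 genes reached 1 CPM in Day-2 replicates 1 to 5, and 11052, 10471 and 10985 in IVC replicates 1 to 3. That difference of 1036 genes also reached the smallest p of the exact test, 0.0952, and it rested partly on Day-2 replicate 1, without which it was 860. In the libraries without shared signal it was 908 genes (exact permutation test, p = 0.2000, the smallest possible there).

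A run of gene identifiers that includes the named mitochondrially encoded genes held most of this concentration. Symbols were at hand for only 5 genes of the run, so the share of all mitochondrially encoded genes was not measured. All 10 of the top genes in IVC, and 6 of the 10 on Day 2, lay in 1 run of 37 consecutive gene identifiers that also holds ND6, CYTB, ND4L, COX3 and ATP8. Its share ranged from 11.3% to 20.2% on Day 2 and from 43.9% to 44.2% in IVC. The 5 named genes took 2.43%, 0.906%, 1.7%, 2.57% and 1.06% in Day-2 replicates 1 to 5 and 4.82%, 4.9% and 4.7% in IVC replicates 1 to 3 (difference 3.06 percentage points, two-sided exact permutation test, p = 0.0952, the smallest possible). Day-2 pools thus differed widely among themselves in these transcripts, whereas the summed share was close in IVC replicates 2 and 3, with replicate 1 near their mean. Single genes were not equally close: ND6 was at 11336 and 7116 CPM and COX3 at 23904 and 26207 CPM in IVC replicates 2 and 3.

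**Figure D3:**
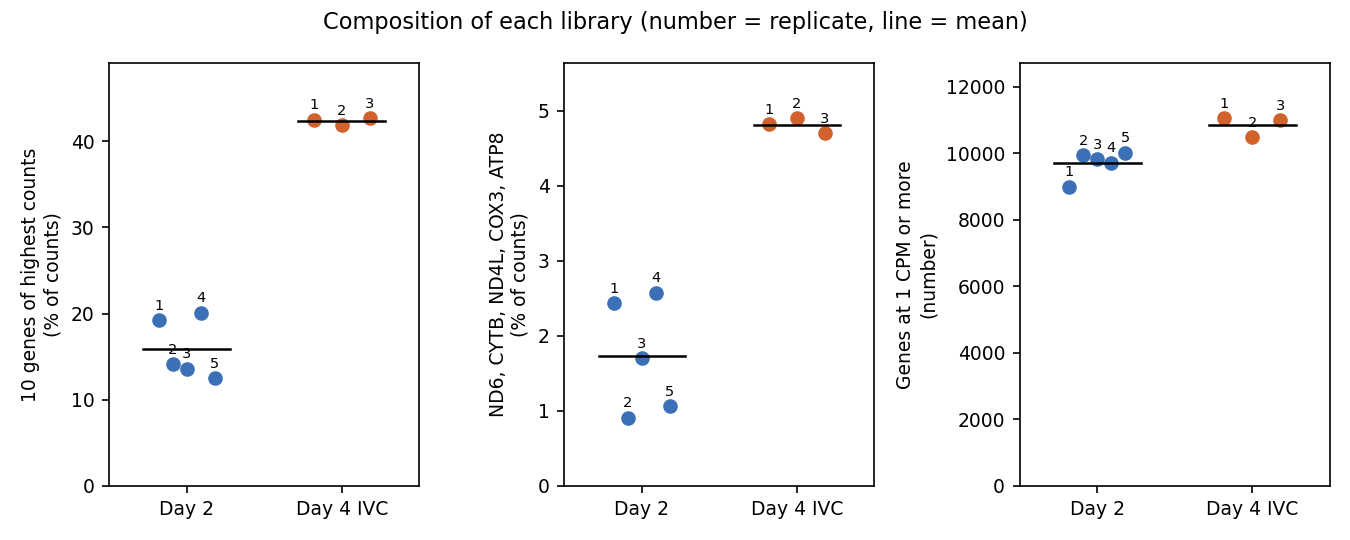
Share of counts in the 10 genes of highest counts (left, %), share in 5 named mitochondrially encoded genes (middle, %) and number of genes at 1 CPM or more (right) in each of the 5 Day-2 and 3 IVC libraries. Points are libraries with their replicate number, lines are group means, and on each measure the IVC libraries lie above all Day-2 libraries, with Day-2 shares of 12.5% to 20.1% on the left.

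Genes of the respiratory chain and ATP synthase rose, both among those encoded in mitochondria and among those encoded in the nucleus. ATP5MF, a nuclear-encoded subunit of the membrane part of ATP synthase, was at 2.05, 2.87, 1.62, 1.47 and 1.47 CPM in Day-2 replicates 1 to 5. In IVC replicates 1 to 3 it was at 92.1, 112 and 82.5 CPM. This was a 52.2-fold rise (log2 fold change 5.71, SE 0.47, FDR 7.11e-05), larger by far than the spread between pools. The study drew the named genes of this group, too, on differences between Day-4 groups that include these IVC libraries. SDHD, which anchors succinate dehydrogenase (complex II) in the inner membrane, was at 4.67, 1.78, 5.42, 1.13 and 0.982 CPM on Day 2 and at 66.9, 82.4 and 59 CPM in IVC. Its log2 fold change was 4.69 (SE 0.79, FDR 0.00191).

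The other nuclear genes of this group did not pass. COX11, which delivers copper to cytochrome c oxidase (complex IV), was at 0.941, 0.363, 7.25, 4 and 6.41 CPM on Day 2 and at 26.3, 36.3 and 19.8 CPM in IVC. The groups did not overlap, but the wide range among Day-2 pools left the log2 fold change of 2.91 just short of the threshold (SE 1.13, FDR 0.0558). ATP6V0A2, a subunit of the vacuolar proton pump and not of the respiratory chain, ranged from 7.69 to 41.9 CPM on Day 2 and from 21.7 to 31.4 CPM in IVC. The groups overlapped, and its log2 fold change of 0.25 (SE 0.72, FDR 0.793) changed sign with the scaling.

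Among the mitochondrially encoded genes, COX3, a core subunit of complex IV, was at 10082, 4528, 6346, 11530 and 4122 CPM in Day-2 replicates 1 to 5 and at 23793, 23904 and 26207 CPM in IVC. Its log2 fold change was 1.80 (SE 0.43, FDR 0.00799). ND6, a subunit of complex I, spread most: it was at 3091, 454, 2196, 2857 and 638 CPM on Day 2 and at 8711, 11336 and 7116 CPM in IVC. Every IVC pool was above every Day-2 pool, with a log2 fold change of 2.35 (SE 0.72, FDR 0.0233). This change was 1.98 without IVC replicate 2 and 2.68 without IVC replicate 3, fits that leave 1 IVC library.

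CYTB, the catalytic core of complex III, rose by a log2 fold change of 2.04 (SE 0.52, FDR 0.0114), and by 1.97 without IVC replicate 2. ND4L, of complex I, rose by 2.42 (SE 0.53, FDR 0.00557), and ATP8, of ATP synthase, by 2.58 (SE 0.52, FDR 0.00387) on the same scale. All 5 mitochondrial genes were low in Day-2 replicates 2 and 5 and high in replicates 1 and 4, and all 5 passed without shared signal (FDR 0.00683 to 0.0275). ND4L and ATP8 overlap their neighbours on the mitochondrial genome and ND6 lies on the opposite strand, and the strand setting of the counting is not stated, so reads of these genes may be shared with others.

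Lists of genes under functional terms extend these results. The study picked the terms of rising genes and of falling genes on these libraries, so their direction was fixed by the choice, and only their levels, sizes of change and calls are described. Some lists hold no more than the first 20 identifiers of a longer list. Beside them stand the values over all genes tested, of which 21.8% were called higher and 20% lower with a median log2 fold change of -0.02. Over 13 lists of rising genes together, 114 of 153 tested genes were called higher and 0 lower, and over 10 lists of falling genes 103 of 120 were called lower and 0 higher.

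The energy lists cover the complexes of the chain in turn. Of 20 genes under oxidative phosphorylation, the first of 70 that the study counted, 14 were called higher. The median level of the 20 went from 4.05 to 81.7 CPM (median log2 fold change 4.00). For electron transport from NADH to ubiquinone (complex I) it was 9 of 14 with a median of 2.91. Of complex III 6 of 7 genes, of complex IV 7 of 8 and of the membrane part of ATP synthase 6 of 7 were called higher, with medians of 4.59, 2.82 and 4.35. The 5 genes under citrate cycle, which feeds electrons to the chain, came from a list the study drew on differences between Day-4 groups. All 5 were called higher (3 without shared signal), with a median of 3.26, and their summed level went from 17.4 to 30.4 CPM on Day 2 to between 286 and 317 CPM in IVC. The mitochondrion nucleoid list, whose proteins package and copy mitochondrial DNA, went from a summed 5.8 to 21 CPM to between 303 and 367 CPM, with 5 of 6 genes called higher.

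Most listed genes of the ribosome were called higher. Of 20 listed ribosome genes, the first of 80 that the study counted under this term, 16 were called higher. The 20 genes had a median log2 fold change of 4.64 (range 1.86 to 7.53). Their summed level was 207 to 396 CPM in the Day-2 libraries and 6258 to 7480 CPM in the IVC libraries, a 21.6-fold higher sum in the tested libraries. The 4 ribosome genes not called also had positive fold changes, a direction fixed by the choice of the list for rising genes. Of the 20 genes, 19 did not overlap between the days (59.3% of all genes tested). That choice also favours such separation, so nothing particular to ribosome genes is read from it. A separate list of 14 ribosome genes, which the study drew on Day-4 differences with IVC high, was called higher in full, also without shared signal, with a summed level of 599 to 852 CPM on Day 2 and 10106 to 11480 CPM in IVC. Ribosomal protein genes have many near-identical pseudogenes, and reads may have been split between copies. In the large subunit of the mitochondrial ribosome, 12 of 20 genes were called higher with a median of 3.59, and 8 without shared signal.

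Of 6 named genes of translation initiation 5 were called higher, and 3 without shared signal. The study drew them on differences between Day-4 groups in which these IVC libraries were high, so their rises are not independent of that choice. EIF3J, a loosely bound subunit of initiation factor 3 (eIF3), which holds the small ribosomal subunit ready for mRNA, was at 26.6, 22.2, 27.5, 26.3 and 19.7 CPM in Day-2 replicates 1 to 5. In IVC replicates 1 to 3 it was at 201, 233 and 191 CPM. It had a log2 fold change of 3.14 (SE 0.29, FDR 9.10e-05) and little spread on either day. EIF3F, another eIF3 subunit, was at 6.86, 16.9, 3.48, 41.1 and 30.2 CPM on Day 2 and at 165, 214 and 135 CPM in IVC. Day-2 pools spanned more than 10-fold. The log2 fold change was 3.18 (SE 0.85, FDR 0.0132), and 2.78 without IVC replicate 2.

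EIF3CL, by its name a gene like that for eIF3 subunit c, rose by 1.90 on the log2 scale (SE 0.46, FDR 0.00907). Without IVC replicate 2 it rose by 1.64. Whether its reads are shared with another copy was not tested. EIF3B, a core eIF3 subunit, went from 44.2 to 73.1 CPM on Day 2 to 148, 238 and 82.2 CPM in IVC replicates 1 to 3. Its log2 fold change of 1.61 (SE 0.43, FDR 0.0142) fell short of the threshold without Day-2 replicate 1 (FDR 0.0502) and without shared signal (FDR 0.0833). Without IVC replicate 2 the log2 fold change was 0.64. EIF2S1, the subunit of initiation factor 2 whose phosphorylation slows translation under stress, went from 49.1 to 79.8 CPM to between 155 and 217 CPM (log2 fold change 1.49, SE 0.33, FDR 0.00567, and 0.0538 without shared signal). EIF3E, also of eIF3, was at 335, 182, 340, 273 and 166 CPM on Day 2 and at 362, 453 and 312 CPM in IVC. Its groups overlapped and its log2 fold change was 0.59 (SE 0.35, FDR 0.202).

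**Figure D4:**
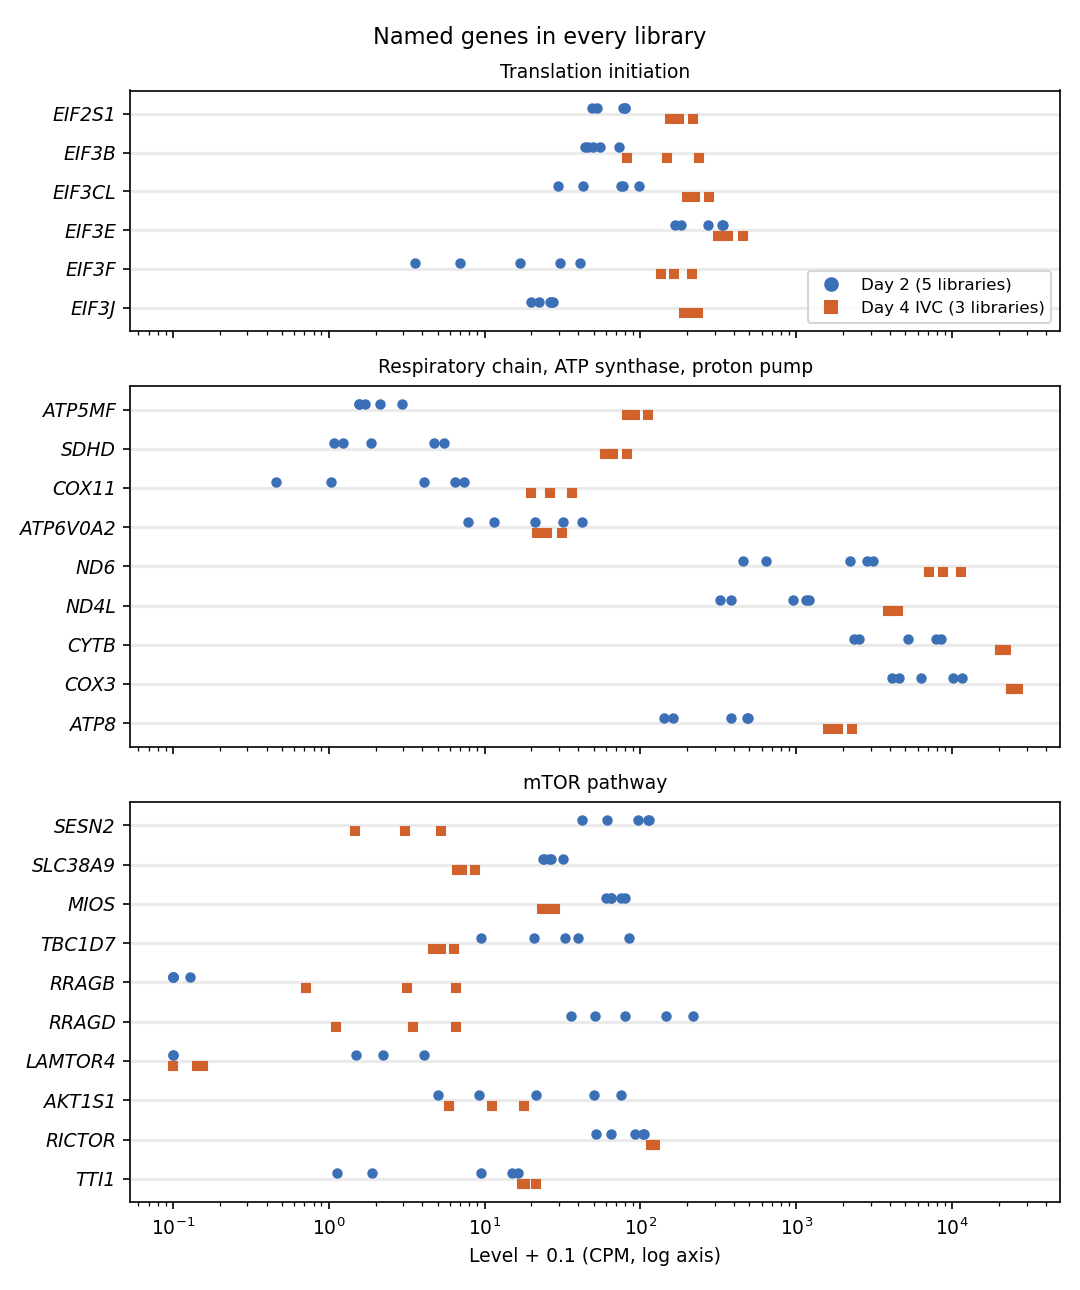
Level of 25 named genes in every library (CPM + 0.1, log axis), in panels for translation initiation, for respiratory chain, ATP synthase and proton pump genes, and for the mTOR pathway. Blue circles are the 5 Day-2 libraries and orange squares the 3 IVC libraries, and Day-2 circles spread widely for COX11, EIF3F, AKT1S1 and RRAGD, while ATP5MF and EIF3J show tight, separate groups.

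Over 19 genes listed as initiation factors, 14 were called higher, and the median level went from 68.3 to 272 CPM (median log2 fold change 2.23). Lists of rising genes also covered transcription, splicing and rRNA maturation. For DNA-directed RNA polymerase, which makes the transcripts, 7 of 8 genes were called higher with a median of 6.21, the largest of the 13 lists of rising genes, and the median level went from 0.704 to 44 CPM. Of the U2-type spliceosome before catalysis, 16 of 19 genes were called higher (median 2.77), and of the U12-type spliceosome, which removes a minor class of introns, 12 of 13 (median 3.44, and 8 called without shared signal). General transcription factors were in a list chosen for falling genes and are given with chromatin. Maturation of the small subunit rRNA had 10 of 18 genes called higher (median 2.46) and snoRNA binding, part of rRNA modification, 6 of 11 (median 2.95).

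Lists of RNA and protein turnover were also among those chosen for rising genes. Of 17 genes under RNA degradation 15 were called higher. Their median log2 fold change was 2.75, and their summed level was 847 to 1309 CPM on Day 2 and 9001 to 11825 CPM in IVC. P-body genes, at the sites where mRNA is stored or decapped, had 15 of 18 called higher (median 3.38), and proteasome genes 9 of 14 (median 2.54). Without shared signal these were 10 and 5 genes. Among 20 listed lysosome genes, 16 were called higher with a median of 4.99, and the median level went from 1.06 to 23.6 CPM. A second lysosome list of 9 genes, which the study drew on Day-4 differences, had 3 called higher and 1 lower, and its summed level did not rise (259 to 511 CPM on Day 2 and 250 to 272 CPM in IVC).

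Several lists of falling genes concerned cell division. Of 19 listed cell cycle genes 16 were called lower, and the median level went from 275 to 47.4 CPM (median log2 fold change -1.95). Spindle genes (12 of 14, median -1.82), spindle pole genes (16 of 19, median -2.32) and centriolar satellite genes (15 of 17, median -2.87) fell alongside. The satellites are granules around the centrioles, and their summed level went from 2602 to 3928 CPM on Day 2 to between 364 and 542 CPM in IVC. Of 10 cleavage furrow genes 7 were called lower, with a median of -2.69. All 19 cell cycle genes kept a mean of at least 1 CPM in IVC. Centromere genes, which serve chromosome segregation, were in a list chosen for rising genes: 13 of 15 were called higher (median 3.57), and their median level went from 7.6 to 88.7 CPM.

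Further lists of falling genes concerned lysosome tethering, the cytoskeleton and cell adhesion. All 6 genes of the HOPS complex, which tethers late endosomes to lysosomes, were called lower (5 without shared signal). Their median log2 fold change was -3.49, and their summed level was 849 to 1117 CPM on Day 2 and 73.2 to 125 CPM in IVC. All 10 myosin complex genes (median -3.59) and all 10 tyrosine protein kinase genes (median -3.61) were called lower. Of 16 adherens junction genes 15 (median -2.78) and of 9 tight junction genes 8 (median -2.44) were called lower. Of 19 genes under FoxO signaling, a pathway that restrains growth, 16 were called lower with a median of -2.66.

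Lists of membrane traffic were also drawn by the study on Day-4 differences. For the endosome, Golgi, trans-Golgi and exosome lists IVC was the highest group, so their rises are not independent of that choice. Of 12 endosome genes 8 were called higher and 0 lower, although 4 were higher without shared signal. Of 19 Golgi membrane genes 10 were higher and 1 lower (median 1.52), and of 10 genes of the trans-Golgi network, where cargo is sorted, 5 were higher and 1 lower (median 1.94). Among 7 extracellular exosome genes 5 were higher and 1 lower with a median of 3.82. The 17 protein transport genes came from another Day-4 list, in which IVC was not the highest group. Of them 5 were higher and 1 lower with a median of -0.22, where 21.8% of all genes tested were called higher.

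Chromatin and basal transcription genes moved both ways. All 10 genes with a bromodomain, which binds acetylated histones, were called lower (median -1.83), as were 8 of 9 basal transcription factor genes (median -2.41) and 10 of 13 genes with an HMG box, which bends DNA (median -2.71 with genes at the floor set at their bound and -4.22 as fitted). Of 20 DNA repair genes 18 were called lower, with a median of -2.59. Chromatin regulators formed a pair of lists by construction: of 20 in the falling list 19 were called lower (median -1.92, from 147 to 42.2 CPM at the median), and of 20 in the rising list 20 were called higher (median 3.73, from 8.18 to 105 CPM).

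Nucleosome genes, which encode histones, came from lists that the study drew on Day-4 differences with IVC low. In the first list 4 of 7 tested genes were called lower and 0 higher, and in the second 5 of 12 were lower and 1 was higher. Without shared signal the first list had 2 genes called lower, and the second list kept its numbers of 5 and 1. The gene of highest level on Day 2 in each list was singled out after its values were seen. In the first list, ENSBTAG00000032455 was at 1013, 2032, 1090, 1811 and 2224 CPM in Day-2 replicates 1 to 5 and at 58.9, 34 and 92 CPM in IVC replicates 1 to 3, with a log2 fold change of -4.67 (SE 0.45, FDR 6.18e-04).

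ENSBTAG00000026199, of the second list, went the other way. It was at 306, 333, 517, 296 and 384 CPM on Day 2 and at 1481, 1696 and 1426 CPM in IVC, with a log2 fold change of 2.12 (SE 0.26, FDR 4.08e-04). Thus the summed level of the second list rose from between 761 and 1083 CPM to between 1517 and 1891 CPM while its median log2 fold change was -1.72. Both genes passed without shared signal (FDR 6.47e-04 and 0.00395). Histone genes form a multigene family whose reads may be split between near-identical copies.

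**Figure D5:**
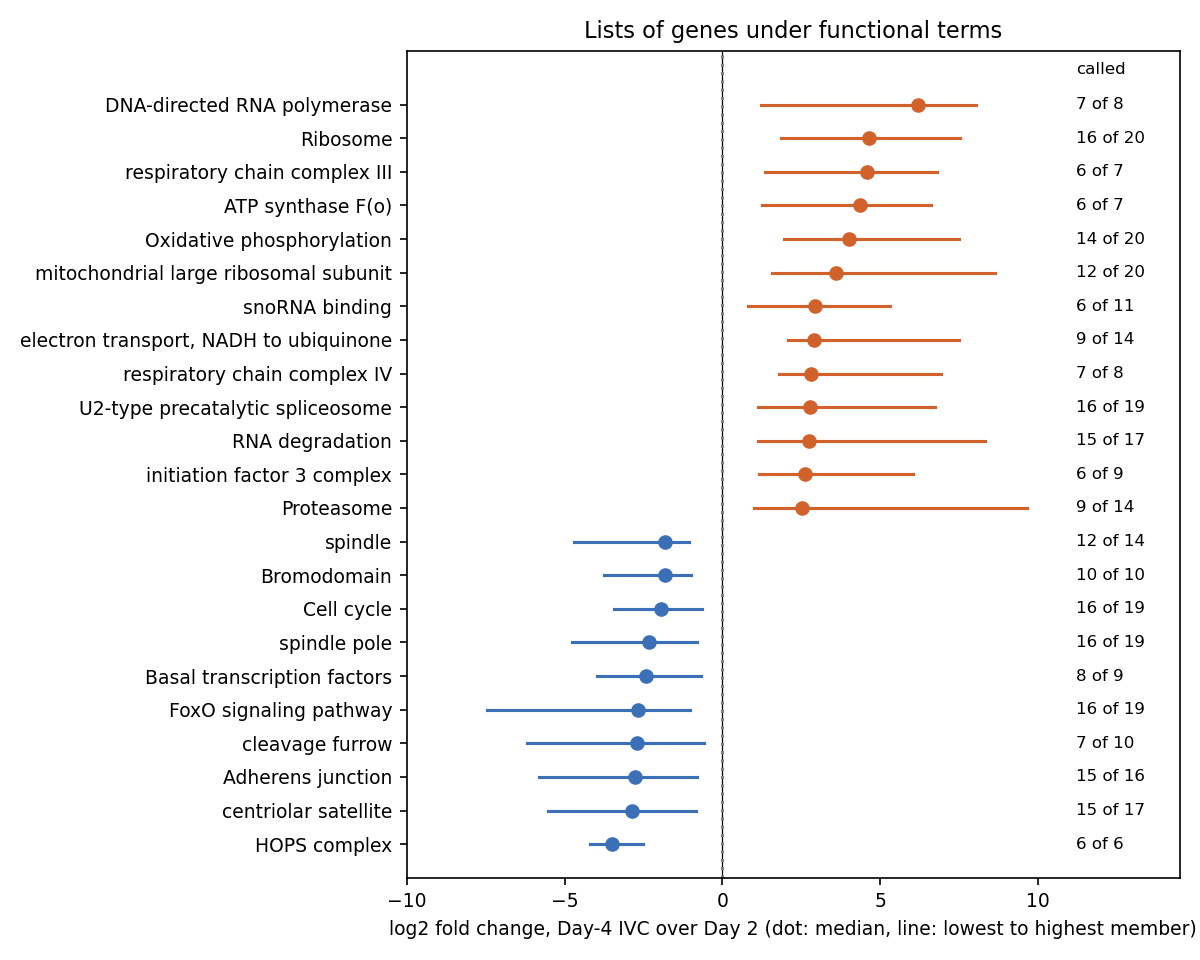
Log2 fold change of Day-4 IVC over Day 2 (x axis) for 23 lists of genes under functional terms (y axis). Dots are list medians, lines run from the lowest to the highest member with genes at the floor set at their bound, the dotted line is the median of all genes tested, and numbers give the genes called of those tested. The 13 lists in orange were chosen for rising genes and the 10 in blue for falling genes, with medians from 2.54 to 6.21 and from -3.49 to -1.82.

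The named genes of the mTOR pathway were drawn by the study on differences between Day-4 groups in which these IVC libraries were low, so their falls are not independent of that choice. Of 9 tested, 5 were called lower and 0 higher. Without shared signal 4 were called lower. SESN2, RRAGD and TBC1D7 were among the 5, and LAMTOR4 was not. That fit leaves out Day-2 replicates 1 and 5, in which LAMTOR4 had 0 counts, so its call there is not read as a fall. The 5 calls became 3 without Day-2 replicate 3. The summed level of the 9 genes was 303 to 586 CPM in the Day-2 libraries and 187 to 212 CPM in the IVC libraries. The study's list of falling genes under mTOR signaling, with the direction fixed by choice, had 15 of 20 genes called lower with a median log2 fold change of -2.32.

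Among the amino acid sensors, SESN2, which binds leucine and restrains mTORC1 when leucine is short, was at 61.2, 42, 111, 114 and 96.9 CPM in Day-2 replicates 1 to 5 and at 3.01, 1.37 and 5.15 CPM in IVC. It fell 25.6-fold (log2 fold change -4.68, SE 0.59, FDR 0.00208). SLC38A9, the lysosomal arginine sensor, was at 25.8, 26.4, 31.7, 24 and 23.7 CPM on Day 2 and at 7.09, 8.54 and 6.53 CPM in IVC. The groups were tight and separate, and its log2 fold change was -1.78 (SE 0.48, FDR 0.0266). It was not called without shared signal (FDR 0.0988) or without Day-2 replicate 3 (FDR 0.0513). Without IVC replicate 3 the log2 fold change was -1.58. MIOS, a subunit of GATOR2, through which such signals pass, went from 60.3 to 79 CPM to between 23.3 and 28.3 CPM (log2 fold change -1.39, SE 0.32, FDR 0.0123, and 0.0551 without shared signal).

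The Rag GTPases carry the signal to mTORC1 and pair an A or B with a C or D subunit. RRAGD was at 51.3, 79, 35.6, 217 and 146 CPM on Day 2 and at 3.37, 1.02 and 6.42 CPM in IVC. This was a 28-fold fall (log2 fold change -4.81, SE 0.85, FDR 0.00991). Without IVC replicate 2 the log2 fold change was -4.04. RRAGB moved the opposite way from a level near 0. It had 0, 0, 1, 0 and 0 counts in Day-2 replicates 1 to 5 and 69, 14 and 116 counts in IVC replicates 1 to 3, or 3.1, 0.619 and 6.42 CPM. It did not pass the filter on low counts, and without that filter its FDR was 0.0129. LAMTOR4, a part of the Ragulator anchor that holds the Rags at the lysosome, had 0, 133, 72, 41 and 0 counts on Day 2 and 0, 1 and 1 counts in IVC. Day-2 replicates 1 and 5 were thus as low as IVC, and the FDR was 0.247 with all Day-2 libraries and 0.0396 without shared signal.

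Another member acts upstream of mTORC1. TBC1D7, the third subunit of the TSC complex that switches mTORC1 off, was at 9.38, 20.8, 39.4, 32.9 and 84.5 CPM on Day 2 and at 5.12, 4.56 and 6.25 CPM in IVC. Its log2 fold change of -2.76 (SE 0.78, FDR 0.0404) was not called without Day-2 replicate 3, 4 or 5 (FDR 0.0647, 0.0596 and 0.0669). Without IVC replicate 2 or 3 the log2 fold change was -2.60 and -3.03.

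The remaining members did not pass the test. RICTOR, which defines mTORC2, was at 64.7, 106, 103, 51.7 and 92.3 CPM on Day 2 and at 116, 121 and 124 CPM in IVC (log2 fold change 0.58, SE 0.35, FDR 0.208), and the sign changed with total counts alone (-0.03). TTI1, needed for assembly of mTOR complexes, was at 16.4, 15, 1.03, 9.37 and 1.79 CPM on Day 2 and at 18.2, 21.3 and 17.2 CPM in IVC (log2 fold change 1.17, SE 1.10, FDR 0.4). AKT1S1, an mTORC1 inhibitor also known as PRAS40, was at 9.08, 21.4, 4.92, 74.6 and 50.6 CPM on Day 2 and at 11, 5.84 and 17.9 CPM in IVC (log2 fold change -1.40, SE 1.03, FDR 0.34). For TTI1 and AKT1S1 the Day-2 pools alone spanned more than 10-fold.

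Such variation among pools was uneven across the transcriptome. At a Day-2 mean of at least 50 CPM, 3134 genes had a median log2 range of 0.85 over the 5 Day-2 libraries, and 51 of them (1.63%) ranged at least 8-fold. In IVC, replicates 2 and 3 had a median absolute log2 difference of 0.48 over 3113 genes at that level, and 48 of these (1.54%) differed at least 8-fold. Over 9022 genes at a mean of at least 5 CPM, the median absolute log2 difference was 0.93 between Day-2 replicates 1 and 5 and 0.66 to 0.70 among Day-2 replicates 2, 3 and 4, which share no signal, while the pairs that shared signal differed by 0.40 to 0.51. Any Day-2 library differed from IVC replicate 2 or 3 by 1.95 to 2.38, more than from any library of its own day.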

How the data were processed

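RNA-seq libraries were made with the NuGEN Encore Complete kit and sequenced as 100 bp single-end reads. Per the study's methods and the submitters' processing notes, reads were checked with FastQC 0.11.9, trimmed with Trimmomatic 0.39, aligned with STAR 2.7.0b to bosTau9 and counted with featureCounts of Subread 2.0.3. The authors deposited these counts as whole numbers for 27607 Ensembl genes, with no normalization. The annotation release and the strand setting are not given in the sources used here. Genes at 1 CPM or more in at least 2 libraries were tested with edgeR 4.0.16 (TMM, robust quasi-likelihood test, Benjamini-Hochberg) in R 4.3.3, with limma 3.58.1 and DESeq2 1.42.0 as alternatives, and single values per library with exact permutation tests in Python 3.11.15. The fit held 7 libraries, without IVC replicate 1. Printed CPM are scaled over 8 libraries. The scripts were tested on simulated data.

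The study used maSigPro for the comparison with Day 2, which was not run. Only 25 genes that are reported here are paired with symbols in the sources used, so marker genes of other cell types, and lists by symbol, were not analysed here, and the lists are those of the study by Ensembl ID. No sequences are given for the same reason, and the result of 1 further gene is not reported here. The comparison and lists were chosen with earlier results of these data known. Genes were named if they were among these 25 or had the largest change among genes at 50 CPM or more with no overlap between days. Further lists, and the fits on libraries without shared signal, were chosen after seeing the data. Other alternatives were the scaling, the filter, the test, an FDR under 0.01, the replicate number as a block, all 8 libraries and leaving out each library.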

Additional observations from a re-analysis of the deposited data

Results flagged for a closer look

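In the Day-2 group, ENSBTAG00000002908 was flagged because 1 of the 5 libraries stood far from the others: it was at 86.6 CPM in replicate 4 and between 49.4 and 59.1 CPM in the other libraries. The gap to the nearest library was 0.739 of the whole range. Of 36 values checked in this way 1 was flagged, and chance flags about 1 in 20 groups. In IVC replicate 1, which was left out of the test, 23 genes were at 5 CPM or more while they had at most 2 counts in IVC replicates 2 and 3, and 8 of these also had at most 2 counts in every Day-2 library.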

How the results depend on the processing

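The counts of genes between Day 2 and Day 4 kept both directions in every alternative, and the total moved by over 1.5 times in few of them. An FDR under 0.01 gave 3119 genes (1606 higher, 1513 lower, and 3117, 1604 and 1513 at least 2-fold). Day-2 replicates 1 and 5 against IVC replicates 2 and 3 gave 3146 genes, all at least 2-fold, with 1182 lower. At least 10 counts in every library left 1832 higher (1773 at least 2-fold), and DESeq2 gave 4413 (4328). Leaving out a library gave 3029 to 4953 genes (1125 to 2588 higher, 1904 to 2580 lower), and at least 2-fold 2981 to 4915 (1104 to 2569 higher, 1877 to 2562 lower). The lowest values came without IVC replicate 2, where the lone IVC pool is assumed to vary like Day-2 pools. There, genes under 1 CPM in every Day-2 library also fail the filter, which lowers the number of rises.

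No pairing by replicate number was seen: deviations of same-numbered libraries correlated by -0.04, 0.00 and -0.00 over 9022 genes. Because IVC replicate 1 lies near the mean of replicates 2 and 3, these 3 values are not independent of each other. With the replicate number as a block 2720 genes passed, all at least 2-fold (1314 higher, 1406 lower), and over all 8 libraries with the block 5279. In the lists of falling genes the block left 65 calls, Day-2 replicates 1 and 5 left 58, and leaving out a library 81 to 104. In the lists of rising genes leaving out a library left 62 to 111, the lowest without IVC replicate 2. With all 8 libraries the 3 exact tests reached p = 0.0357, the smallest possible, for differences of 26.4 and 3.07 percentage points and 1144 genes. This p counts IVC replicate 1, which lies near the mean of replicates 2 and 3, as an independent library and is therefore too small. Leaving out a library gave 25.5 to 27.4 points, 2.86 to 3.27 points and 779 to 1293 genes. With 0 counts required on one day, 12 genes appeared and 0 were cleared, and with at least 1 CPM on the other day 396 and 124.

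Among named genes, ATP6V0A2 changed sign with total counts (-0.39), without a filter (-0.06) and with the replicate block (-0.15), and ranged from -0.15 (without Day-2 replicate 1) to 0.59 when a library was left out. AKT1S1 did so with the block (0.02, and 0.12 over 8 libraries), and RICTOR with total counts (-0.03). COX11, not called in the main test, passed in 6 alternatives. Depth limits genes near the floor, such as LAMTOR4 and RRAGB.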
